A study of Mus musculus with 12 samples.

Results

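Neuronal cytoskeleton and synapse genes were followed as 31 named genes, of 35675 genes in all, in cells sorted from the spinal cord of mice at postnatal day 10. The 31 were chosen by name. They were 10 cytoskeleton and axon growth genes, 6 synaptic vesicle genes, 9 RNA-binding and other genes, and 6 genes of transmitter synthesis and transport. In all groups the Cnp promoter, which is active in myelinating glia, drove Cre (CnpCre), and Cre switched on a red reporter (Rosa26-StopFlox-TdTomato). RalAB cKO mice carried floxed alleles of both Ral GTPases (RalAflox/flox and RalBflox/flox), RalA cKO mice carried RalAflox/flox, and control mice had the driver and the reporter alone. Red cells of large size were sorted into Trizol from 4 mice per group, 1 library per mouse, and the labels call them enriched for oligodendrocytes. Libraries held 10.93 to 15.44 M estimated counts. A level is given as CPM, the estimated counts of a gene per 1 M counts of a library after scaling, in the order of mice 1 to 4. A change is a log2 fold change ± standard error (n = 4 mice per group), and "rose", "fell" and "passed" refer to an adjusted p under 0.05 in edgeR's quasi-likelihood test across 13456 genes.

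Neurons build long processes from microtubules, whose tubulin and associated proteins (Tubb3, Map2, Mapt, the stathmins) set their stability, and from neurofilaments (Nefl, Nefm, Nefh, Ina), which set axon calibre. At synapses, vesicles carrying synaptophysin and synapsins fuse through a SNARE complex that contains Snap25, with synaptotagmin as the calcium sensor, and release transmitters made and loaded by enzymes and carriers such as Gad1 and Slc32a1. The spinal cord holds inhibitory neurons using GABA and glycine, excitatory glutamate neurons and cholinergic motor neurons, all in contact with oligodendrocytes. Several of these genes are not restricted to neurons: oligodendrocytes also make tau, the product of Mapt, for the microtubules of their processes.

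In RalAB cKO cells, against control, 10 of the 29 tested members fell and 2 rose, where 18.4% of all tested genes passed, 9.02% as lower and 9.39% as higher. Tubb3 and Uchl1 were lower by 3.15-fold and 2.58-fold, while Mapt and Elavl3 were higher by 1.32-fold and 1.26-fold. In RalA cKO cells, against control, 0 of 29 members passed in edgeR, with a background of 2.78% (1.07% lower). There, 12 members had an unadjusted p under 0.05 in edgeR, Syn1 among them as higher, and 4 did without control 3. DESeq2 called 3 members lower, where it called 1083 of all genes, 470 as lower. With quality weights limma-voom called 4 members lower, where it called 1740 of all genes, 742 as lower. Between the mutants, RalAB cKO against RalA cKO, 3 members fell (background 4.5%) and 1 rose (background 7.03%), with a background of 11.5% in either direction. The median log2 fold change of the tested members was -1.25 in RalAB cKO against control, -0.82 in RalA cKO against control and -0.39 between the mutants, beside medians of -0.01, -0.02 and -0.03 over all tested genes. Slc17a6 and Chat were too low to be tested. Both comparisons with control used the same 4 control libraries, and 1 of these, control 3, stood apart in these genes: it was the highest of all 12 libraries in 23 of 31 members. Without control 3 the median was -0.52 in RalAB cKO and -0.20 in RalA cKO (28 members tested), with 7 members lower (background 6.72%) and 1 higher in RalAB cKO (background 14.4% in either direction) and 0 in RalA cKO (background 1.13%, 0.478% lower). Between the mutants 4 fell and 1 rose without control 3 (background 12% in either direction, 4.73% lower).

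**Figure D1:**
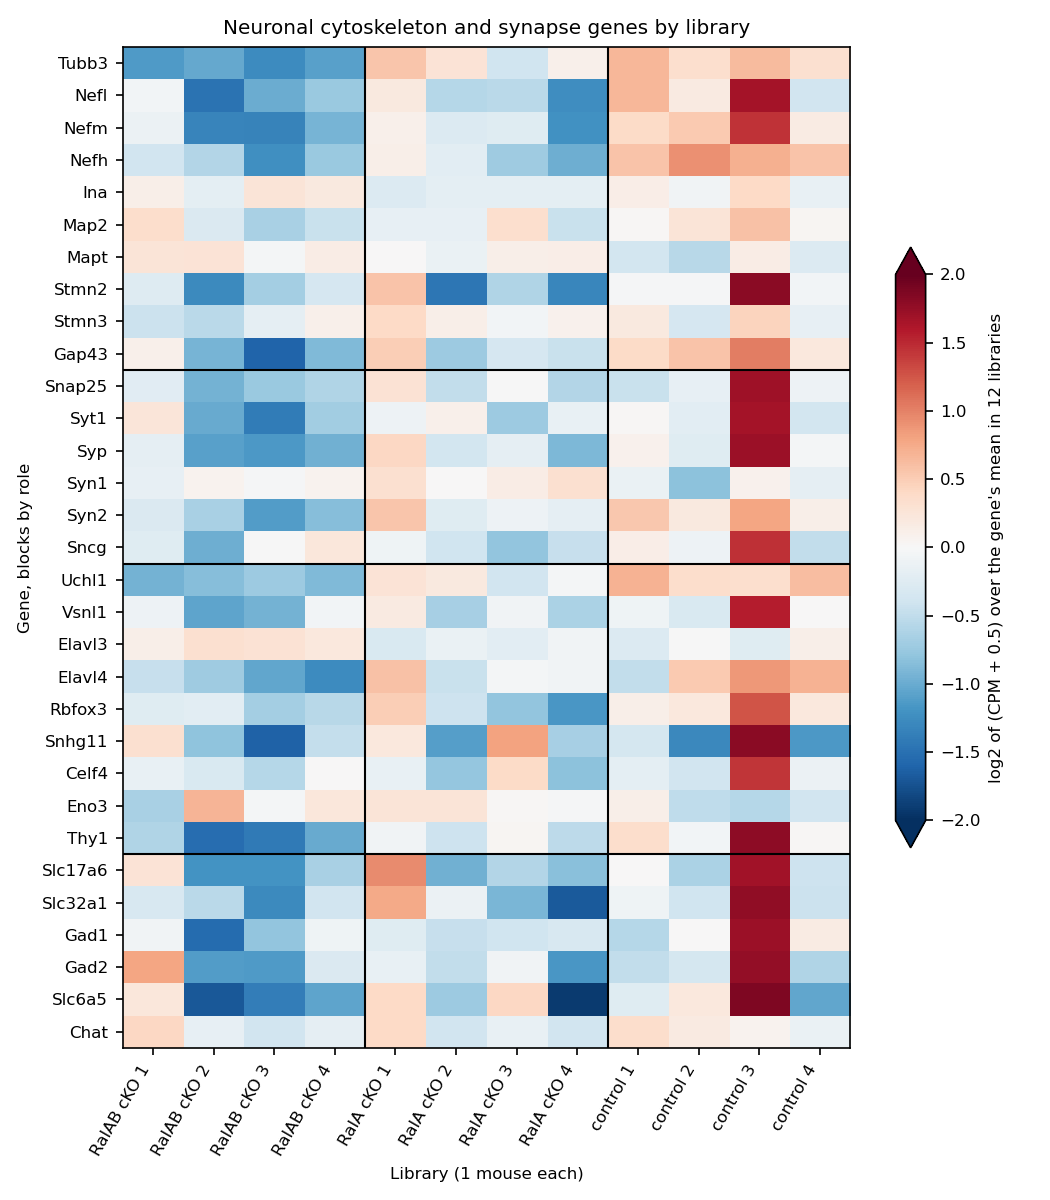
Colour gives the log2 of CPM + 0.5 over the gene's mean in 12 libraries, for each of 31 genes (rows, in blocks by role) in each library (columns), and colours end at the ends of the scale. Control 3 is dark red across most vesicle and transmitter genes, whereas Tubb3 and Uchl1 are blue in all 4 RalAB cKO libraries.

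Levels differed widely among the 31 genes. Per transcript length, Elavl3 (mean over 12 libraries 331 TPM, transcripts per 1 M) and Uchl1 (215 TPM) were the most abundant, followed by Mapt (69.9 TPM), Stmn3 (69.7 TPM), Map2 (39.3 TPM) and Tubb3 (32.4 TPM). The order of Mapt and Stmn3 differed between groups: Mapt averaged 78.2 TPM in RalAB cKO, 65.2 TPM in RalA cKO and 66.3 TPM in control, and Stmn3 57.4, 73.2 and 78.6 TPM in these groups. Tubb3 was above Map2 in RalA cKO alone (34.5 and 30.4 TPM). All 6 transmitter genes were below 2 TPM on this mean, from Gad1 (1.71 TPM) and Slc32a1 (1.45 TPM) down to Chat (0.252 TPM). The name "neuronal" thus covers genes at the level of abundant transcripts of these sorted cells and genes close to the level that 3 counts give, which was 0.187 to 0.272 CPM in a library.

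The promoters of 4 members are shown because these genes mark the range of behaviour: Tubb3 and Uchl1 fell in RalAB cKO against both other groups, Elavl3 rose against both, and Syn1, which did not pass in any comparison, holds the 1 match among member promoters to the left arm of the RE1 element. RE1 is the site bound by REST, a repressor that keeps neuronal genes low in cells that are not neurons. Each sequence runs 5′ to 3′ on the strand of the gene, covers 250 bases before to 50 after the RefSeq start in build GRCm38.p6, and has motif matches in capitals.
Tubb3 (chr8:123411303-123411602, plus strand): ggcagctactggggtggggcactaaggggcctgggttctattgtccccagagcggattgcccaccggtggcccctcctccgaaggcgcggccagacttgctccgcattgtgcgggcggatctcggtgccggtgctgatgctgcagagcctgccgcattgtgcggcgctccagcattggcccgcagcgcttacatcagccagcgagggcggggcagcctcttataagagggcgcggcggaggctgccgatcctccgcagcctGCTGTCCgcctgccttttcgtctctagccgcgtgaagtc
Uchl1 (chr5:66675871-66676170, plus strand): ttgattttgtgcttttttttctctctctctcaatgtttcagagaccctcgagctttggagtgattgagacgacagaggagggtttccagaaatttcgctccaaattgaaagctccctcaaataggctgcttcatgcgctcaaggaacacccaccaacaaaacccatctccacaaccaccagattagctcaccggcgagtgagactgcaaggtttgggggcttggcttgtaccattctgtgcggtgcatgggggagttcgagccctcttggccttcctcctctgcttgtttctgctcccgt
Elavl3 (chr9:22051974-22052273, minus strand): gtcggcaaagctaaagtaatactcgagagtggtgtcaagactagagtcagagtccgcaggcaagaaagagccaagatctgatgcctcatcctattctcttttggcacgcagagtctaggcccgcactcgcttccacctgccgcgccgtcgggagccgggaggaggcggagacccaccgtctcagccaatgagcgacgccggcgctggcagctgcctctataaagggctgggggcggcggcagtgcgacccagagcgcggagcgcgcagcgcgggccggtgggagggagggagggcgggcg
Syn1 (chrX:20920869-20921168, minus strand): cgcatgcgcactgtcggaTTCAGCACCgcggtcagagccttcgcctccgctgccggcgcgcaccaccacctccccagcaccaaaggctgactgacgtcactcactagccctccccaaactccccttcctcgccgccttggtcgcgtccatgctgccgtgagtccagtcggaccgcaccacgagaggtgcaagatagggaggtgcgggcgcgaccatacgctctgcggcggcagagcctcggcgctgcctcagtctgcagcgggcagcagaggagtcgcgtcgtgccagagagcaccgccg
RefSeq promoters were found for 22 of the 31 members, 30 promoters in all. The left arm of RE1, TTCAGCACC, searched on both strands, was in 1 of these (Syn1) and in 0.371% of 32851 promoters of the same length. The right arm, GGACAGC, on both strands, was in the promoters of Map2, Gad2 and Tubb3 (in Tubb3 as its reverse complement) and in 6.56% of all promoters. G and C made up 67.3% of the Tubb3 window, 50.7% of the Uchl1 window, 65.3% of the Elavl3 window and 68.3% of the Syn1 window, beside a median of 52.7% over all promoters. A match is a string of letters and was not tested as a site.

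Among the 10 cytoskeleton and axon growth genes, 5 fell in RalAB cKO against control (Tubb3, Nefl, Nefm, Nefh and Gap43) and 1 rose (Mapt). The background was 9.02% lower and 9.39% higher. Tubb3 (chr8:123411424-123422015) codes for class III beta tubulin, a standard marker of neurons. It had 14.1, 15.3, 12.9 and 14.5 CPM in RalAB cKO and 46.6, 38.3, 23.8 and 34.0 CPM in RalA cKO, against 50.2, 39.9, 48.9 and 39.6 CPM in control. The 4 RalAB cKO libraries lay close together and below every other library, and control 3 was within the range of the other controls. Its log2 fold change was -1.65 ± 0.17 against control (adjusted p = 1.76e-05) and -1.33 ± 0.17 against RalA cKO (adjusted p = 6.56e-05). Both calls held when each library was left out, with log2 fold changes of -1.70 to -1.59 and of -1.48 to -1.18. In RalA cKO mice Tubb3 spanned 23.8 to 46.6 CPM, which overlapped the control range, and the difference from control did not pass (-0.33 ± 0.16, adjusted p = 0.243).

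The neurofilament subunits form one polymer in axons. Nefl, the light chain, had 6.30, 2.04, 3.03 and 3.72 CPM in RalAB cKO and 7.59, 4.24, 4.36 and 2.49 CPM in RalA cKO, against 10.7, 7.53, 21.9 and 4.90 CPM in control. Nefm, the medium chain, had 2.52, 0.816, 0.798 and 1.22 CPM in RalAB cKO and 3.03, 2.21, 2.27 and 0.924 CPM in RalA cKO, against 3.79, 4.20, 8.43 and 3.18 CPM in control. Nefh, the heavy chain that is added as axons mature, had 1.11, 0.897, 0.399 and 0.760 CPM in RalAB cKO and 1.79, 1.32, 0.785 and 0.569 CPM in RalA cKO, against 2.62, 3.49, 2.93 and 2.63 CPM in control. Control 3 was the highest library in Nefl and Nefm but not in Nefh, where control 2 was, and the RalAB cKO libraries lay below all controls in Nefm and Nefh but overlapped them in Nefl. Against control the log2 fold changes in RalAB cKO were -1.58 ± 0.46 for Nefl (adjusted p = 0.0300), -1.86 ± 0.44 for Nefm (adjusted p = 0.00787) and -1.86 ± 0.40 for Nefh (adjusted p = 0.00402). Without control 3 these were -1.04 (adjusted p = 0.0997), -1.48 (adjusted p = 0.0333) and -1.87 (adjusted p = 0.00889). The Nefl call was also lost without RalAB cKO 2, 3 or 4, and its adjusted p ran from 0.0122 to 0.0997 over the 12 libraries left out. With no count filter the Nefl call was lost too (adjusted p = 0.105). The annotated exons of Nefl and Nefm share 1108 bases on opposite strands, and the strand setting of the counting was not stated in the sources used here, so reads there could be credited to either gene.

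Ina, the fourth subunit, did not follow them: it had 18.8, 15.01, 20.8 and 19.9 CPM in RalAB cKO and 14.3, 15.1, 14.99 and 15.1 CPM in RalA cKO, against 19.1, 16.4, 22.9 and 15.5 CPM in control, with a log2 fold change of 0.01 ± 0.15 in RalAB cKO against control (-0.09 when libraries were scaled by their totals alone). Its RalA cKO libraries all lay below the controls, by a margin that did not pass (-0.32 ± 0.15, adjusted p = 0.211). Ina shares 456 exon bases with Nt5c2 on the other strand.

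Gap43, a growth cone protein of growing axons, had 15.9, 7.503, 4.55 and 7.82 CPM in RalAB cKO and 21.0, 8.74, 11.6 and 10.7 CPM in RalA cKO, against 19.4, 22.3, 30.7 and 17.2 CPM in control. All RalAB cKO values were below all control values, and the first mouse of each mutant group was the highest of its group. A log2 fold change of -1.32 ± 0.35 in RalAB cKO against control (adjusted p = 0.0179) was -1.14 (adjusted p = 0.0577) without control 3. The call was also lost without RalAB cKO 2 or 4, and the adjusted p ran from 0.000914 to 0.0597 over the libraries left out. With no count filter the Gap43 call was lost too (adjusted p = 0.0740).

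Mapt, which codes for the microtubule protein tau, went the other way. It had 222, 225, 181 and 207 CPM in RalAB cKO and 187, 170.0, 201 and 203 CPM in RalA cKO, against 144, 127, 207 and 153 CPM in control. Control 3 was the one control inside the RalAB cKO range, and the other controls lay below every mutant library. Its log2 fold change of 0.40 ± 0.13 in RalAB cKO against control (adjusted p = 0.0466) was 0.55 ± 0.12 (adjusted p = 0.00479) without control 3. It no longer passed in 9 of 12 leave-outs, namely without control 1, 2 or 4, RalA cKO 1, 2 or 4, or RalAB cKO 1, 2 or 4 (adjusted p 0.00479 to 0.123). With scaling by library totals alone it was 0.31 (adjusted p = 0.184). The Mapt call was also lost with transcript length offsets (adjusted p = 0.0665) and with only the 8 libraries compared (adjusted p = 0.0732).

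The remaining cytoskeleton genes did not pass in any comparison with all 12 libraries in edgeR. Stmn3, a stathmin that binds free tubulin, had 29.6, 27.2, 35.3 and 43.1 CPM in RalAB cKO and 53.1, 43.4, 38.4 and 42.3 CPM in RalA cKO, against 46.0, 31.6, 54.4 and 35.8 CPM in control. These ranges overlapped throughout, with log2 fold changes of -0.31 ± 0.18 for RalAB cKO over control and -0.39 ± 0.18 for RalAB cKO over RalA cKO. Stmn2, its relative in growing axons, was at 1.47 to 3.48 CPM in RalAB cKO, 1.24 to 6.52 CPM in RalA cKO, and 4.09 to 16.0 CPM in control, with control 3 at the top (-1.42 ± 0.57 in RalAB cKO against control, adjusted p = 0.101). Map2, which binds microtubules in dendrites, spanned 49.2 to 99.6 CPM in RalAB cKO, 56.9 to 98.2 CPM in RalA cKO, and 78.8 to 117 CPM in control (-0.45 ± 0.21 in RalAB cKO against control, adjusted p = 0.164). Map2 was called lower there with transcript length offsets (-0.81, adjusted p = 0.0129) and in limma-voom (-0.58, adjusted p = 0.0168). Leaving out RalAB cKO 1 gave -0.70 for Map2 (adjusted p = 0.00934). Stmn2 was called lower in DESeq2 (adjusted p = 0.0432) and without RalA cKO 1 (adjusted p = 0.0477).

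Of the 6 synaptic vesicle genes, 2 fell in RalAB cKO against control, Syn2 and Syp (background 9.02% lower). Syn2 (chr6:115134902-115282006) codes for synapsin II, which tethers vesicles in the reserve pool. It had 14.98, 11.7, 8.30 and 10.0 CPM in RalAB cKO and 27.4, 15.5, 17.2 and 16.2 CPM in RalA cKO, against 27.1, 21.2, 32.3 and 20.1 CPM in control. The RalAB cKO libraries were below all libraries of both other groups, although RalAB cKO 1 came close to the lowest RalA cKO value. The log2 fold change against control was -1.16 ± 0.22 (adjusted p = 0.00189) and remained called without any single library, at -1.03 (adjusted p = 0.00694) without control 3. Between the mutants it was -0.76 ± 0.22 (adjusted p = 0.0341), which was lost without RalA cKO 1 or RalAB cKO 2, 3 or 4 (adjusted p 0.0103 to 0.129), with library totals alone (adjusted p = 0.1005) and with only the 8 libraries compared (adjusted p = 0.0513). Syn2 shares 90 exon bases with Timp4 on the other strand, which averaged 106 CPM.

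Syp codes for synaptophysin, an abundant membrane protein of synaptic vesicles. It had 15.5, 8.07, 7.74 and 8.89 CPM in RalAB cKO and 23.8, 13.6, 15.6 and 9.24 CPM in RalA cKO, against 18.8, 14.8, 58.8 and 17.3 CPM in control. Control 3 was at 3.12 times the next control, and RalAB cKO 1 lay inside the range of the other controls. A log2 fold change of -1.45 ± 0.46 in RalAB cKO against control (adjusted p = 0.0492) was -0.77 ± 0.30 (adjusted p = 0.106) without control 3. It was also lost without RalA cKO 1, 2 or 3 or RalAB cKO 2, 3 or 4 (adjusted p 0.0334 to 0.129). The Syp call was lost with no count filter (adjusted p = 0.130) and with only the 8 libraries compared (adjusted p = 0.0823) too.

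Syn1, the second synapsin, did not fall: it had 30.0, 35.1, 32.9 and 35.2 CPM in RalAB cKO and 41.9, 33.7, 37.4 and 42.2 CPM in RalA cKO, against 30.5, 18.8, 35.5 and 29.5 CPM in control. Control 2 was the lowest of the 12 libraries, the ranges overlapped, and the log2 fold changes were 0.22 ± 0.16 in RalAB cKO against control (adjusted p = 0.367), 0.44 ± 0.16 in RalA cKO against control (adjusted p = 0.117) and -0.22 ± 0.16 between the mutants (adjusted p = 0.445). Snap25 and Syt1 were at 2.77 to 4.89 CPM and 1.12 to 4.52 CPM in RalAB cKO, 3.70 to 7.23 CPM and 2.09 to 4.06 CPM in RalA cKO, and 4.12 to 19.9 CPM and 2.82 to 13.0 CPM in control. In both genes the top value was control 3, with the other controls inside the range of the mutants. Their log2 fold changes in RalAB cKO against control were -1.25 ± 0.45 and -1.28 ± 0.51 with all libraries and -0.43 ± 0.29 and -0.49 ± 0.40 without control 3. With all libraries, Snap25 was called lower in DESeq2 (adjusted p = 0.0256) and Syt1 in limma-voom (adjusted p = 0.0489), and in edgeR Snap25 was called without control 1 and Syt1 without RalAB cKO 1 (-1.80, adjusted p = 0.0175). Sncg, gamma-synuclein, was between 0.245 and 3.56 CPM in all libraries, and its log2 fold change of -0.96 ± 0.57 was -0.12 ± 0.53 without control 3.

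Among the 9 RNA-binding and other genes, Uchl1, Elavl4 and Thy1 fell and Elavl3 rose in RalAB cKO against control (background 9.02% lower, 9.39% higher). Uchl1 (chr5:66676091-66687234) codes for a ubiquitin hydrolase that is among the most abundant proteins of neurons. It had 59.2, 63.9, 69.2 and 62.0 CPM in RalAB cKO and 139, 132, 87.7 and 111 CPM in RalA cKO, against 187, 147, 146 and 176 CPM in control. The 3 groups did not overlap: RalAB cKO was lowest, RalA cKO between, and control highest, with control 3 the lowest of the controls. Log2 fold changes were -1.37 ± 0.14 in RalAB cKO against control (adjusted p = 1.55e-05), -0.89 ± 0.14 between the mutants (adjusted p = 0.00032) and -0.48 ± 0.13 in RalA cKO against control (adjusted p = 0.0617). The first pair of calls held without any single library. The RalA cKO difference missed the threshold in edgeR with TMM scaling, but passed with library totals (-0.59, adjusted p = 0.0211), with no count filter (adjusted p = 0.0357), in DESeq2 (adjusted p = 0.0259) and in limma-voom (adjusted p = 0.0321).

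Elavl3 and Elavl4 code for the HuC and HuD proteins, which bind AU-rich elements and stabilise neuronal mRNAs. Elavl3 (chr9:22015005-22052023) had 792.9, 908, 895 and 843 CPM in RalAB cKO, 589, 668, 633 and 694 CPM in RalA cKO, against 605, 722, 614 and 793.5 CPM in control. All RalAB cKO libraries were above all RalA cKO libraries, and control 4 just exceeded RalAB cKO 1. The log2 fold change was 0.41 ± 0.11 against RalA cKO (adjusted p = 0.0191), lost without RalA cKO 1 or RalAB cKO 2 or 3 (adjusted p 0.0150 to 0.0693). Against control it was 0.33 ± 0.11 (adjusted p = 0.0442), called without control 4 or RalAB cKO 1 and lost without any of the other 10 libraries (adjusted p 0.0213 to 0.127). It was also lost with library totals alone (0.24, adjusted p = 0.0649), with no count filter (adjusted p = 0.0930) and with only the 8 libraries compared (adjusted p = 0.0768).

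Elavl4, at far lower levels, had 1.56, 1.22, 0.878 and 0.684 CPM in RalAB cKO and 3.75, 1.59, 2.27 and 2.203 CPM in RalA cKO, against 1.505, 3.56, 4.68 and 4.09 CPM in control. Control 1 was below the highest RalAB cKO library and the other controls were above all of them. Its log2 fold change of -1.66 ± 0.40 in RalAB cKO against control (adjusted p = 0.00893) passed without any single library, at -1.48 (adjusted p = 0.0291) without control 3.

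Thy1 codes for a surface glycoprotein of neurons. It had 4.30, 2.04, 2.23 and 3.11 CPM in RalAB cKO and 6.43, 4.95, 6.97 and 4.55 CPM in RalA cKO, against 8.77, 6.50, 24.5 and 6.90 CPM in control. The RalAB cKO libraries lay below every library of the other groups, and control 3 was 2.80 times the next control. In RalAB cKO against control the log2 fold change was -1.999 ± 0.404 (adjusted p = 0.00349), and -1.35 ± 0.28 (adjusted p = 0.00393) without control 3. Between the mutants it was -0.96 ± 0.41 and did not pass (adjusted p = 0.170), but passed without control 3 (-0.97 ± 0.26, adjusted p = 0.0238), a fit in which the spread was estimated from the other 11 libraries.

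The other 5 genes of this set did not pass in any comparison with all 12 libraries in edgeR. Rbfox3, the NeuN splicing factor, was at 0.798 to 1.30 CPM in RalAB cKO, 0.426 to 2.41 CPM in RalA cKO, and 1.77 to 4.50 CPM in control. Its RalAB cKO libraries were below all controls, with a log2 fold change of -1.24 ± 0.48 (adjusted p = 0.0832) that passed with only the 8 libraries compared (adjusted p = 0.0496) and without RalA cKO 1 (adjusted p = 0.0484). Vsnl1, a neuronal calcium sensor, had -1.14 ± 0.46 in RalAB cKO against control, and -0.42 ± 0.37 without control 3. Snhg11 and Celf4 had -1.0005 ± 0.8058 and -0.78 ± 0.48, and 0.47 ± 0.61 and -0.02 ± 0.41 without control 3. With transcript length offsets Celf4 was at -1.61 and was called lower (adjusted p = 0.0211). Eno3, an enolase best known from muscle, was at 3.11 to 8.56 CPM in RalAB cKO, 5.05 to 6.27 CPM in RalA cKO, and 3.31 to 5.63 CPM in control (0.48 ± 0.28 in RalAB cKO against control, adjusted p = 0.247).

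The 6 transmitter genes were low and gave 0 calls in edgeR with all 12 libraries in any comparison, for the 4 that were tested. The background was 18.4% in RalAB cKO against control, 2.78% in RalA cKO against control and 11.5% between the mutants. Slc32a1, the vesicular carrier for GABA and glycine, had 1.71, 1.39, 0.638 and 1.60 CPM in RalAB cKO and 4.11, 2.03, 0.959 and 0.355 CPM in RalA cKO, against 2.09, 1.58, 8.87 and 1.54 CPM in control. Gad1, an enzyme that makes GABA, had 1.78, 0.326, 0.878 and 1.75 CPM in RalAB cKO and 1.52, 1.24, 1.31 and 1.42 CPM in RalA cKO, against 1.11, 1.90, 7.30 and 2.18 CPM in control. In both, control 3 stood alone at the top, and the other 3 controls lay within the range of the mutants for Slc32a1 and within or just above it for Gad1. Log2 fold changes in RalAB cKO against control were -1.41 ± 0.69 for Slc32a1 (adjusted p = 0.174) and -1.40 ± 0.55 for Gad1 (adjusted p = 0.0888), and -0.40 ± 0.60 and -0.54 ± 0.47 without control 3. At an unadjusted p under 0.05 there was 1 of the 4 in each comparison with control and 0 between the mutants, and limma-voom called Gad1 lower in RalAB cKO against control (adjusted p = 0.0426), as did edgeR without control 1 (adjusted p = 0.0372).

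Gad2, the second enzyme for GABA, was at 0.160 to 2.00 CPM in RalAB cKO, 0.142 to 0.872 CPM in RalA cKO, and 0.454 to 4.37 CPM in control, and it failed the filter without control 3. Slc6a5, the glycine transporter of inhibitory terminals, was at 0.163 to 2.00 CPM in RalAB cKO, 0.0711 to 2.35 CPM in RalA cKO, and 0.545 to 7.30 CPM in control. Slc17a6, the vesicular glutamate carrier of spinal neurons, was at 0.890 and 0.228 CPM in RalAB cKO 1 and 4 and at 0 in mice 2 and 3, where 3 counts would be 0.245 and 0.239 CPM. It was at 0.0883 to 1.70 CPM in RalA cKO, and 0.238 to 3.18 CPM in control. Chat, which makes acetylcholine in motor neurons, did not exceed 0.371 CPM in any library and was at 0 in RalAB cKO 3, RalA cKO 2 and RalA cKO 4. In Gad2, Slc6a5 and Slc17a6 the top value was in control 3, and in Chat it was in RalAB cKO 1.

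**Figure D2:**
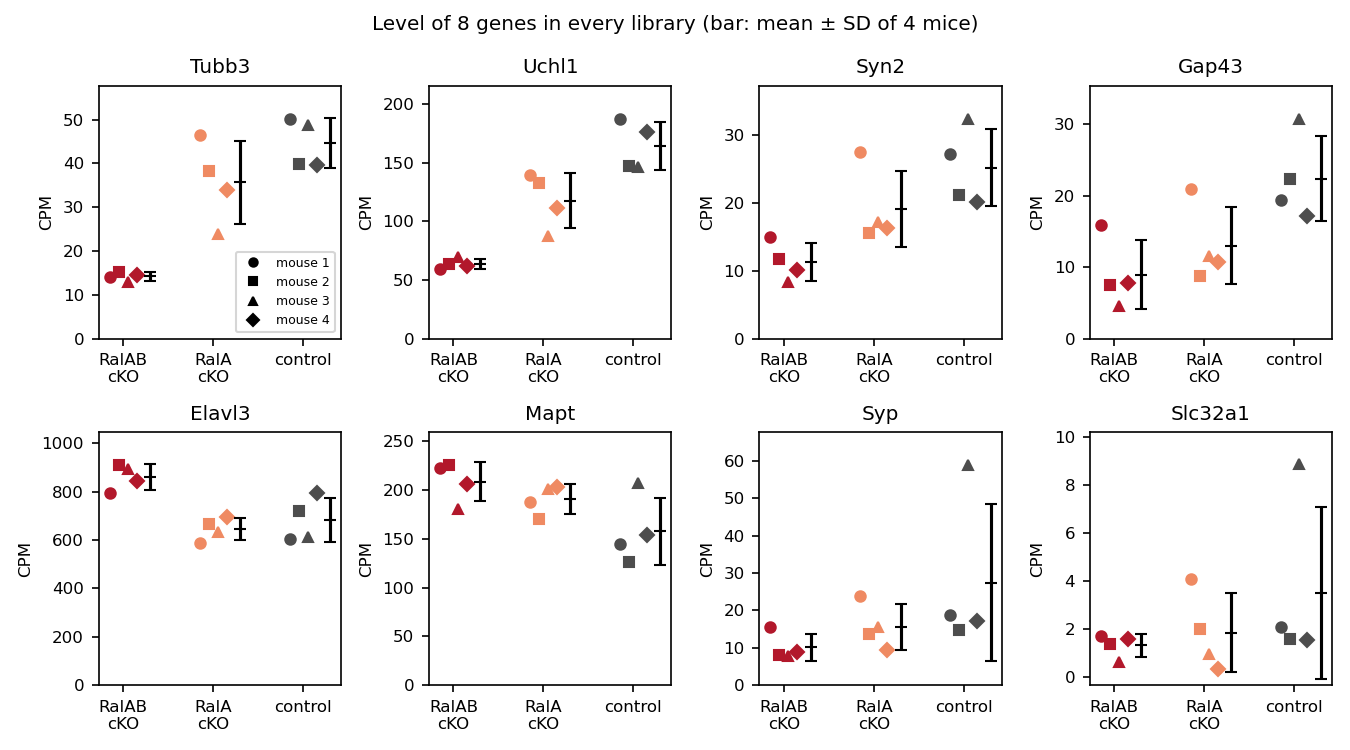
CPM of 8 genes in every library (points, shape by mouse number) with the mean ± SD of 4 mice per group (bars), on axes from 0, except Slc32a1, whose SD bar reaches just below it. Tubb3, Uchl1, Syn2 and Gap43 are lower in every RalAB cKO mouse than in any control, the ranges overlap in Elavl3 and Mapt, and in Syp and Slc32a1 control 3 stands far above the rest.

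The 31 genes were separated by control 3, calling a gene high there where its CPM was at least 2 times the highest of the other 3 controls. By this rule 17 of 31 members were high, against 306 of 13456 tested genes (2.27%). They were 5 of 6 transmitter genes, 4 of 6 vesicle genes, 5 of 9 RNA-binding and other genes and 3 of 10 cytoskeleton genes. The ratio was greatest for Gad2 (6.90), Snhg11 (5.21), Slc17a6 (4.87) and Slc32a1 (4.24). It was 2.06 for Nefl and 2.01 for Nefm, just inside the limit, and 1.38 for Gap43 and 1.35 for Mapt, just outside, so that limits of 1.5 and 2 chose the same 17, and a limit of 3 left 13. Because control values chose these groups, their differences from control are given as a description only.

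Among the high members, the median log2 fold change in RalAB cKO against control was -1.34 with all libraries and -0.54 without control 3, and the members that fell numbered 4 (Nefl, Nefm, Syp and Thy1) with it and 2 (Nefm and Thy1) without it. In RalA cKO against control their median was -1.04 with control 3 and -0.16 without it. Among the 14 other members, the medians in RalAB cKO against control were -0.45 and -0.33, with 6 lower and 2 higher with control 3 (lower: Tubb3, Nefh, Gap43, Syn2, Uchl1 and Elavl4) and 5 lower and 1 higher without it. Between the mutants, a difference to which the control libraries contribute through the estimated spread, the medians were -0.38 for the high members and -0.39 for the others, and -0.46 and -0.40 without control 3. The 4 genes called there (Tubb3, Syn2, Uchl1 and Elavl3) were among the other members. In a fit of only the 8 mutant libraries, Thy1, a high member, was called lower (adjusted p = 0.0456) and Syn2 was not called (adjusted p = 0.0513). Thus Tubb3, Nefh, Syn2, Uchl1 and Elavl4 were lower in RalAB cKO with and without control 3, as were Nefm and Thy1 of the high members. Log2 fold changes of Snap25, Syt1, Stmn2, Vsnl1, Celf4, Slc32a1 and Gad1 were between -1.42 and -0.78 with control 3. Without it they were between -0.65 and -0.02.

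**Figure D3:**
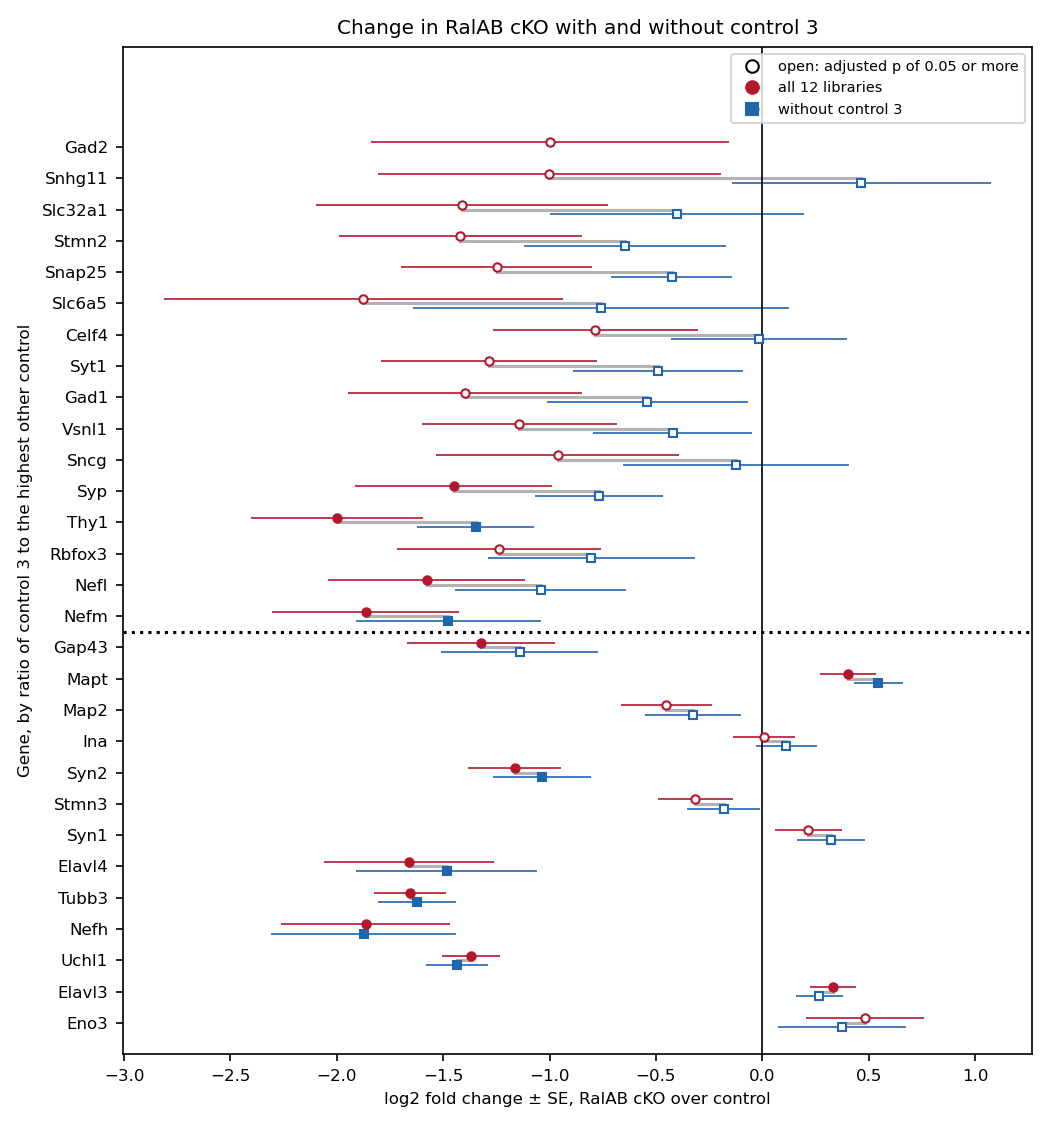
Log2 fold change ± SE in RalAB cKO over control for the 29 tested genes, ordered by the ratio of control 3 to the next control, with all 12 libraries (red circles) and without control 3 (blue squares), open where the adjusted p was 0.05 or more. Above the dotted line, at a ratio of 2, the squares lie nearer to 0 than the circles, and below it Tubb3, Nefh and Uchl1 hardly move.

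Uchl1 and Tubb3 were the members with the lowest adjusted p in both comparisons of RalAB cKO, and they were followed at the level of transcripts. For Tubb3, the coding transcript Tubb3-201 held 94.0% of the estimated counts in RalAB cKO, 97.6% in RalA cKO and 99.9% in control. For Uchl1, the coding transcript Uchl1-201 held 32.9%, 27.3% and 29.6% in these groups and Uchl1-202, annotated as a retained intron, held 67.0%, 72.7% and 70.2%. Both were lower in RalAB cKO, at means of 32.9 TPM for Uchl1-201 and 81.9 TPM for Uchl1-202, against 49.2 and 157 TPM in RalA cKO and 83.5 and 240 TPM in control. Elavl3-201 held 96.8%, 96.6% and 96.6% of its gene and Mapt-204 held 96.2%, 97.2% and 96.8%. Reads shared by transcripts were divided by a model, so these shares were not tested. For 9 of the 17 members with a mean of at least 50 counts, 1 transcript held over 90% of the gene on the mean of each group.

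The order of the groups was followed in the members called in both comparisons of RalAB cKO. Tubb3, Syn2 and Uchl1 had their group means in the order RalAB cKO, RalA cKO, control from low to high. For Tubb3 these were 14.2 ± 0.971, 35.7 ± 9.49 and 44.6 ± 5.67 CPM (SD, n = 4 mice each). For Uchl1 they were 63.6 ± 4.20, 118 ± 23.2 and 164 ± 20.8 CPM, and for Syn2 11.2 ± 2.84, 19.1 ± 5.59 and 25.2 ± 5.70 CPM. RalA cKO did not differ from control beyond the threshold in edgeR in any of them. Elavl3 had 859.8 ± 52.8 CPM in RalAB cKO, 646 ± 45.5 CPM in RalA cKO and 684 ± 90.6 CPM in control, and its difference between RalA cKO and control was -0.08 ± 0.11 (0.01 without control 4). Groups that did not overlap were found for 9 members in RalAB cKO against control, all lower (background 19.2% in either direction and 9.34% lower), for 4 in RalA cKO against control, all lower (background 11.4% and 5.77%), and for 6 between the mutants, 5 of them lower (background 17.3% and 7.63%). The 4 in RalA cKO were Nefm, Nefh, Ina and Uchl1.

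In RalA cKO against control the members were low more often than high, with 25 of 29 negative log2 fold changes, but this was 20 of 28 without control 3. The median over all tested genes was -0.02, and -0.01 without control 3. The lowest adjusted p were 0.0598 for Nefh (-1.39 ± 0.39) and 0.0617 for Uchl1. DESeq2 called Nefl, Nefh and Uchl1 lower (adjusted p = 0.0487, 0.0191 and 0.0259), and limma-voom called Nefm, Nefh, Gap43 and Uchl1 lower (adjusted p = 0.0489, 0.0182, 0.0347 and 0.0321). Both tools also called more genes as a whole: 1083 in DESeq2 (470 lower) and 1740 in limma-voom (742 lower), beside 374 in edgeR. Nefh and Uchl1 were also called in edgeR without RalA cKO 1 (adjusted p = 0.0374 and 0.0378), which was the highest RalA cKO library in 19 of 31 members, as RalAB cKO 1 was among RalAB cKO libraries in 19. Scaling by library totals moved the median over all tested genes to -0.14 in RalA cKO, and the split of all calls there was 144 lower and 230 higher with TMM scaling and 252 lower and 176 higher with totals.

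A list of 114 other genes of neurons, covering further cytoskeleton, synapse, receptor, channel and adhesion genes, was read in the same fit, and 96 were tested. In RalAB cKO against control 28 fell and 3 rose, 32.3% of those tested beside 18.4% of all genes (9.02% lower, 9.39% higher). Their median log2 fold change was -0.61. Without control 3, 13 of 95 fell and 3 rose, 16.8% beside 14.4% of all genes (6.72% lower), with a median of -0.29. Genes with small p among the calls included Cacna1b, the pore of N-type calcium channels (-1.22 ± 0.19, adjusted p = 0.00043), and the tubulin-binding Stmn1 (-0.71 ± 0.11, adjusted p = 0.00048). Nsg2, a vesicle protein of neurons (-1.72 ± 0.28), and Gria1, a glutamate receptor subunit (-2.34 ± 0.45), also fell. Cacna1b and Stmn1 averaged 8.70 ± 2.81 and 133 ± 15.9 CPM in RalAB cKO, against 20.2 ± 2.22 and 217 ± 27.0 CPM in control (SD, n = 4 mice each), and had log2 fold changes of -1.23 and -0.76 without control 3. The 3 that rose were Eno2 (2.90 ± 0.47, adjusted p = 0.00207), Klc1 and Rtn1. Eno2, the enolase known as neuron-specific, averaged 147 ± 15.8 CPM in RalAB cKO and 19.5 ± 10.9 CPM in control.

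Between the mutants 8 of these genes fell and 3 rose, of 96 tested. In either direction this was 11.5%, beside 11.5% of all genes, but over all genes 4.5% fell and 7.03% rose. Those that fell included Stmn1 (-0.96 ± 0.11, adjusted p = 3.4e-05), Cacna1b (-1.27 ± 0.19, adjusted p = 0.00025), Ppp2r2c, a phosphatase subunit (-0.57 ± 0.10), and the adhesion molecule Ncam1 (-0.52 ± 0.10). The 3 that rose were Rtn1, a reticulon of the endoplasmic reticulum (0.55 ± 0.11, adjusted p = 0.00349), Bsn, a scaffold of the presynaptic active zone (0.64 ± 0.18, adjusted p = 0.0262), and Map1b, a microtubule protein of growing axons (0.79 ± 0.22, adjusted p = 0.0274). The Bsn call was lost without RalAB cKO 1 or 2 or RalA cKO 2 or 4, and the Map1b call without RalAB cKO 1 or RalA cKO 1 or 4. In RalA cKO against control 2 rose and 1 fell, 3.12% of those tested beside 2.78% of all genes: Stmn4 (0.79 ± 0.13, adjusted p = 0.00536), Eno2 (2.12 ± 0.46, adjusted p = 0.0394) and, lower, the neuronal filament gene Prph (adjusted p = 0.0365), at means of 0.243 ± 0.197 CPM in RalA cKO and 1.499 ± 0.502 CPM in control. The RalA cKO mean of Prph lay within the level that 3 counts give, 0.187 to 0.272 CPM in a library, so its change rests on few counts. The Eno2 call was lost in 8 and the Prph call in 7 of 12 leave-outs, including without control 3 for Prph (adjusted p = 0.113) and without control 1, 2 or 4 for Eno2, while the Stmn4 call held in all 12. By the rule used for the members, 38 of the 114 were high in control 3, beside 306 of 13456 tested genes (2.27%). The 114 include genes too low to be tested. The list was drawn up with earlier results of these data known.

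**Figure D4:**
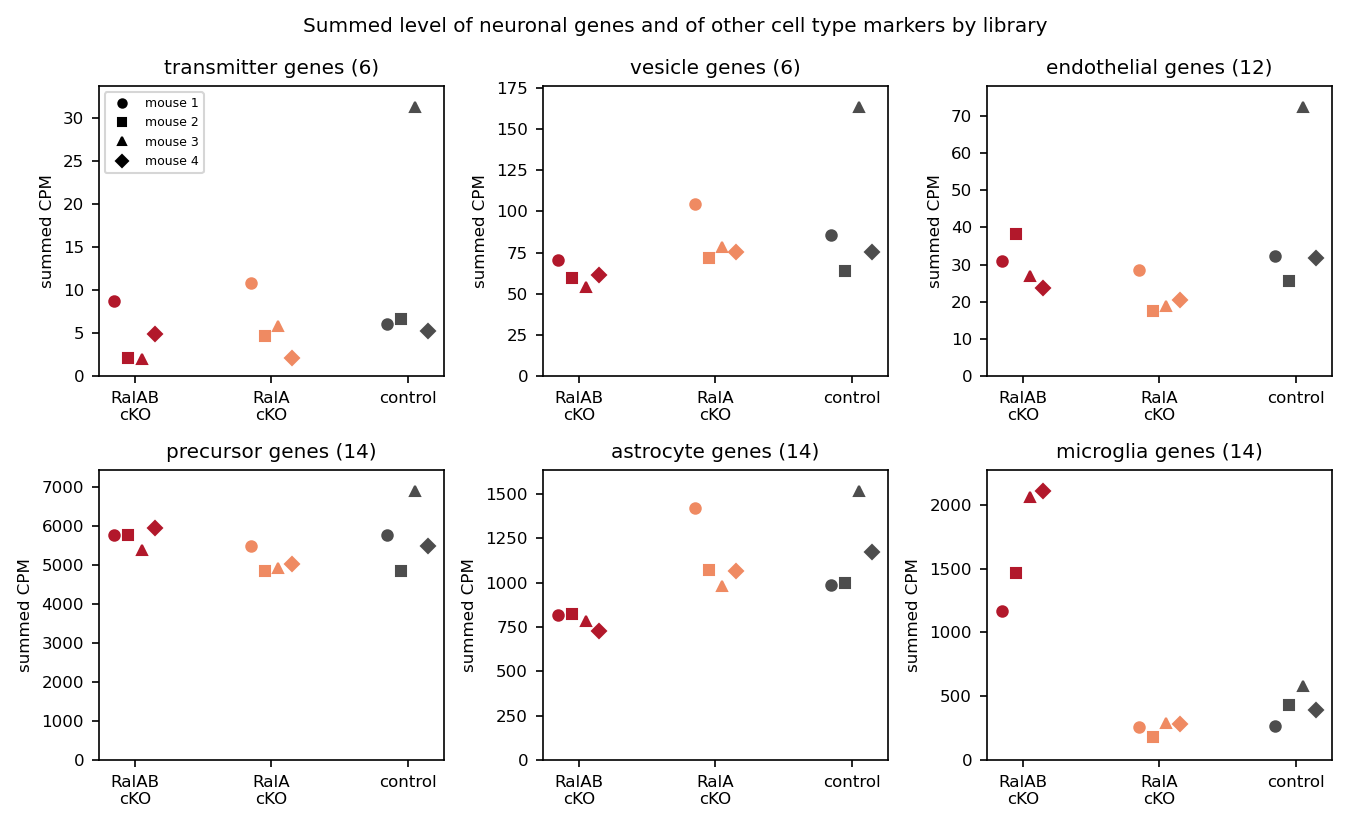
Summed CPM of the 6 transmitter and 6 vesicle members and of marker lists for endothelial cells, oligodendrocyte precursors, astrocytes and microglia in every library (points, shape by mouse number). Control 3 is highest in all but the microglial panel, and among controls there too, and RalAB cKO has the highest microglial sums and the lowest astrocyte sums.

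Markers of other cell types differed in control 3, between the groups, or in both. In control 3 the summed levels were 31.2 CPM for the transmitter members, against 5.18 to 6.58 CPM in the other controls, and 163 CPM for the vesicle members, against 63.9 to 85.6 CPM. It also had the highest sums of all 12 libraries for 12 endothelial genes (72.3 CPM, led by Cldn5 and Kdr), 10 pericyte and fibroblast genes (35.7 CPM), 14 astrocyte genes (1514 CPM, led by S100b and Atp1b2) and 14 oligodendrocyte precursor genes (6888 CPM, led by Gpr17 and Bcan), and the lowest for 14 mature oligodendrocyte genes (95912 CPM). Of the endothelial genes 0 of 9 tested passed in any comparison, and of the pericyte and fibroblast genes 0 of 8. The background was 18.4% in RalAB cKO against control, 2.78% in RalA cKO against control and 11.5% between the mutants. In RalAB cKO the sum of 14 microglial genes, Csf1r among them, was 1169 to 2105 CPM, against 180 to 290 CPM in RalA cKO and 270 to 583 CPM in control. Of the 14, 13 rose against control. Over all tested genes in RalAB cKO against control, 9.39% rose and 9.02% fell (6.72% fell without control 3). The astrocyte sum was 728 to 821 CPM in RalAB cKO, against 979 to 1419 CPM in RalA cKO and 989 to 1514 CPM in control, and 9 of 14 astrocyte genes fell against control (5 without control 3). Genes of newly formed oligodendrocytes, led by Nfasc and Bcas1, summed to 15867 to 17499 CPM in RalAB cKO, above every library of RalA cKO (11583 to 12538 CPM) and control (13135 to 13718 CPM), and 5 of 13 rose and 2 fell against control. Of the 14 mature oligodendrocyte genes, 8 fell and 1 rose in RalAB cKO against control. Their sums overlapped, at 97381 to 124940 CPM in RalAB cKO and 95912 to 126270 CPM in control. Precursor genes fell in 7 of 14 and rose in 1 against control, at summed levels of 5396 to 5941 CPM in RalAB cKO and 4843 to 6888 CPM in control. No gene of these 7 lists was at 0 in all libraries. The part of neurons, astrocytes, precursors or microglia in the levels of the 31 genes was not tested, and in sorted bulk RNA fewer cells of a type and less RNA per cell cannot be told apart.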

How the data were processed

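The deposited files, 1 per library, gave an estimated count and a TPM value per transcript, per the file headers. The submitters' processing notes name Trimmomatic 0.36, kallisto 0.44 and build GRCm38.p6, and no strand setting was stated in the sources used here. Of 121843 transcripts, 121104 matched GENCODE vM21, and the 739 others held 0.219% to 0.277% of counts. Summing per gene and rounding gave estimated counts for 35675 genes.

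The edgeR 4.0.16 filter (minimum count 10, total 15) kept 13456 genes. Libraries were scaled by TMM, all 12 entered 1 robust quasi-likelihood fit, and p-values were adjusted by Benjamini-Hochberg over all tested genes (threshold 0.05). The biological coefficient of variation in common was 0.199. Standard errors are the log2 fold change over the square root of F. TPM values served to compare levels between genes and transcripts, and some group means of TPM are described. They were not scaled by TMM, and differences in TPM were not tested. The fit was tested on simulated data.

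Every pair of libraries within a group differed beyond sampling noise (chi-square per degree of freedom 9.09 to 39.5). Each library is a mouse, of a sex not stated in the sources used here. Alternatives were median-of-ratios scaling, library totals, no filter, at least 1 CPM in 4 libraries, DESeq2 1.42.0, limma-voom 3.58.1 with quality weights, only the 8 libraries compared, transcript length offsets, a block by mouse number, and each library left out.

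The members and lists were chosen with earlier results of these data known. Values in every library are given for members called in any comparison and the 2 highest by TPM in each role. Of the other neuron genes, up to 5 calls with the smallest p are named per comparison, plus others that rose, which were chosen after their values were seen. One gene that this rule names is not reported here.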

Additional observations from a re-analysis of the deposited data

Results flagged for a closer look

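Within groups of 4 mice, 18 of 105 sets of values had 1 library far from the other 3. The rule marks about 1 set in 20 by chance, which would be about 5.25 sets. The sets share the same libraries, the sums reuse the values of members, and the members were chosen with earlier results known. The 18 marks are therefore not independent, and no excess over chance can be read from them. Of the 18 marks, 14 were control 3 at the top. They were Stmn2 (16.0 CPM), Snap25 (19.9 CPM), Syt1 (13.0 CPM), Syp (58.8 CPM), Vsnl1 (10.6 CPM), Rbfox3 (4.50 CPM), Snhg11 (12.6 CPM), Celf4 (6.31 CPM), Thy1 (24.5 CPM), Slc17a6 (3.18 CPM), Slc32a1 (8.87 CPM), Gad2 (4.37 CPM) and the sums of the cytoskeleton members (530.0 CPM) and of the transmitter members (31.2 CPM). RalA cKO 1 was far above its group in Syn2 (27.4 CPM) and Slc17a6 (1.70 CPM). It was marked as low in Ina by a small gap (14.3 CPM, against 14.99 to 15.1 CPM in its group). RalAB cKO 1 was far above its group in Syp (15.5 CPM).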

How the results depend on the processing

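RalA cKO against control was the comparison most open to the method. Of the members, 0 were called in edgeR, 1 with library totals, 1 with no filter, 3 in DESeq2, 4 in limma-voom and 0 to 2 with a library left out (2 without RalA cKO 1). Of the other neuron genes 3 were called, 5 with library totals, 8 in DESeq2, 12 in limma-voom and 1 to 5 with a library left out. Of all genes 374 were called, 1083 in DESeq2, 1740 in limma-voom and 85 (without RalA cKO 4) to 944 (without control 1) with a library left out. The median of the members ran from -1.0015 to -0.2048 with a library left out, the highest without control 3.

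In RalAB cKO against control, 12 members were called, and 7 (without RalAB cKO 2 or 4) to 13 with a library left out. With the other settings 8 (with no count filter) to 15 (in limma-voom) were called. Of the other neuron genes 31 were called and 16 (without control 3) to 43 with a library left out, and of all genes 2478, 4062 in limma-voom and 1605 (without RalAB cKO 4) to 3209 with a library left out. The median of the members ran from -1.50 to -0.52 (without control 3). Between the mutants, 4 members were called and 2 (without RalA cKO 1 or RalAB cKO 2 or 3) to 6 with a library left out. Of all genes 1552 were called there, and 2560 in limma-voom. The log2 fold change of Elavl3 in RalA cKO against control ran from -0.1417 to 0.0073 with a library left out, and turned positive without control 4. That of Nefl between the mutants ran from -0.6707 to 0.0419, and turned positive without RalA cKO 1. The causes were not tested.

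Mouse numbers did not pair the samples: over 12 same-number pairs the correlation of deviations ran from -0.198 to 0.175, and 3 exceeded 0.1. With mouse number as a block, the replicate block left 232 calls over all genes in RalA cKO against control, 11 members called in RalAB cKO against control (Mapt, adjusted p = 0.0607, was lost) and 4 between the mutants. For the 12 members called against control, other settings gave 301 results on the same side of the threshold, 13 weaker and 10 stronger, and leaving out a library gave 383 on the same side, 40 weaker, 7 stronger and 2 reversed. Members near 3 counts in most libraries (Chat and Slc17a6) allow no firm statement at this depth.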
